A study of Homo sapiens with 4 samples.

Results

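Integrins, laminins and collagens were taken as the genes whose symbols begin with ITGA or ITGB and a number, with LAMA, LAMB or LAMC and a number, or with COL, a number, A and a number. Of the 24462 distinct symbols counted, 76 matched, and the 43 with at least 10 reads in any library were kept (11 of 20 integrins, 9 of 12 laminins and 23 of 44 collagens). The libraries came from HepG2, a human hepatocellular carcinoma cell line, with 1 library per condition. The drug arm compared PD0332991, which inhibits the kinases CDK4 and CDK6, with its solvent DMSO. In the siRNA arm, cells were transfected with scrambled siRNA or with siRNA against CDK4 and CDK6 (CDK4/6 KD). All 4 cultures shared the same line, medium and serum, and no engineered allele is named for any of them. The sources used here do not state the dose or duration of PD0332991 for these libraries, nor how long after transfection RNA was taken. Reads came from QuantSeq 3′ mRNA sequencing, a method primed from the poly(A) tail whose reads fall near the 3′ end of each transcript, so a level in CPM (the TMM-scaled share of a library's reads) is not raised by transcript length.

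Integrins are receptors built from an alpha and a beta chain that tie the cytoskeleton to proteins outside the cell, and the chain pair sets which ligand is bound. Laminins are trimers of an alpha, a beta and a gamma chain that form the cell-facing sheet of basement membranes. Collagens are trimers whose types differ in what they build, such as fibrils (types I, II, III, V, XI and XXVII), the basement membrane network (type IV) or molecules that sit on fibrils (types IX and XVI). In the liver, hepatocytes face a sparse matrix without a continuous basement membrane, while stellate cells and fibroblasts are the main source of fibrillar collagen in scarring.

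Library totals ran from 8983848 to 11176880 reads, and the TMM factors that correct library size ran from 0.957 to 1.03. The targets of the knockdown were lower in it, with 814 reads of CDK4 against 3789 for scrambled siRNA (fold change: 0.203) and 1464 reads of CDK6 against 5734 (fold change: 0.241). All 8 hepatocyte markers were detected, with a summed level between 15253 and 19519 CPM. With 1 library per condition, no difference below has a replicate check and none has a p-value. Fold changes are given with a 95% exact interval from how a gene's reads divide over the pair of libraries, which covers counting error only and compares libraries rather than conditions. The comparison of scrambled siRNA with DMSO, both without CDK4/6 inhibition, is set beside the others as the only measure of how far libraries lay apart otherwise, and it also holds the effect of transfection.

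The promoter sequences of 4 genes are shown as a description, and their part in any fold change was not tested. ITGA2, an integrin chain that binds collagen, had the lowest CDK4/6 KD fold change among genes with at least 100 reads. COL16A1 had the highest on that scale, and COL4A5 and COL4A6 stand head to head on the X chromosome. Each window runs from 250 bases before to 50 after a start site in RefSeq (GRCh38.p14), 5′ to 3′ on the gene's strand. In the ITGA2 window (chr5:52989102-52989401, plus strand) and the COL16A1 window (chr1:31703968-31704267, minus strand), capitals mark each GC box, the letters GGGCGG, which read CCGCCC on the other strand and were searched on both.
ITGA2: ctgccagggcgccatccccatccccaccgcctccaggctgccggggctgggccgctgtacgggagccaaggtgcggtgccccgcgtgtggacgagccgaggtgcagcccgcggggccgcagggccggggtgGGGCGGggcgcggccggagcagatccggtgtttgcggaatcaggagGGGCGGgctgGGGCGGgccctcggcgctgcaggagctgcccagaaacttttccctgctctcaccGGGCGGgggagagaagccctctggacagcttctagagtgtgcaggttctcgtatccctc
COL16A1: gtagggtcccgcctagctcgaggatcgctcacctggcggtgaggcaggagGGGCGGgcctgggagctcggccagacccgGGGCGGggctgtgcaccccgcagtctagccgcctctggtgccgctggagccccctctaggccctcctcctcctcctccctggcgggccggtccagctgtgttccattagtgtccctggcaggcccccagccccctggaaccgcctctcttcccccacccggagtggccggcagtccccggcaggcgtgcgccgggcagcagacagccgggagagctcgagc
In the COL4A5 window (chrX:108439588-108439887, plus strand) and the COL4A6 window (chrX:108439409-108439708, minus strand), capitals mark the 121 bases that the windows share, which are the reverse complement of each other.
COL4A5: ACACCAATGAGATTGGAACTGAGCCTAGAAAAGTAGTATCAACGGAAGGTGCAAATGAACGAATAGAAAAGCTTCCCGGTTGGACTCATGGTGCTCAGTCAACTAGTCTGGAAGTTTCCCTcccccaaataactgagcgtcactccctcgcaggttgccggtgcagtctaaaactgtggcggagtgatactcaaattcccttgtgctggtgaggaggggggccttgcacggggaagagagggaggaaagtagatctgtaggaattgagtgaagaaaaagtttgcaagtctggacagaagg
COL4A6: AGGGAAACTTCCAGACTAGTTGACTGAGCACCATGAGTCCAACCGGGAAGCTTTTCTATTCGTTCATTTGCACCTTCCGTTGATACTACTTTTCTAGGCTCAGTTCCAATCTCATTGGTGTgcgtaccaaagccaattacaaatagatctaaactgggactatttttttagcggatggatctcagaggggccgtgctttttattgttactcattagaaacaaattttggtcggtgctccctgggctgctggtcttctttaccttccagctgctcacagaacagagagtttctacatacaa
The 5′ ends of COL4A5 and COL4A6 lie 347 bases apart in GENCODE 29, on opposite strands, and the gene bodies run away from each other. The COL4A6 window shown is 1 of those listed for that gene, which has another start site further along its strand.

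A promoter window was found for 29 of the 43 genes, in 41 windows. A GC box was present in 73.2% of these windows, against 45.0% of all 35116 windows of that length in the table. The share was 63.6% of integrin windows, 88.9% of laminin windows and 71.4% of collagen windows. The TATA box letters TATAAA, searched on both strands, were in 12.2% of the 41 windows and in 11.5% of all. The AP-1 letters TGANTCA, searched likewise, were in 4.88% of the 41 windows and in 7.71% of all, and the windows that held them belonged to LAMA3 and LAMB3. Windows of 1 gene can overlap, and a match to these letters is a description of the sequence.

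Across the 43 genes, the collagens and the integrins had different orders of the 4 libraries, and scrambled siRNA stood at opposite ends. The scrambled siRNA library had the highest level of 7 of 11 integrins and the lowest level of 15 of 23 collagens and 5 of 9 laminins. PD0332991 had the highest level of 12 of 23 collagens and of 5 of 9 laminins. How often each library was highest or lowest over all genes was not counted, so these orders have no background beside them. Summed over the collagens, the level was 852 CPM in DMSO, 1037 in PD0332991, 465 in scrambled siRNA and 959.6 after CDK4/6 KD. The integrin sum went the other way between the controls, with 643 CPM in DMSO, 678 in PD0332991, 929 in scrambled siRNA and 609 after CDK4/6 KD. Laminins summed to 603, 586, 549.8 and 700.4 CPM in the same order, a narrower range than that of either other family.

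**Figure D1:**
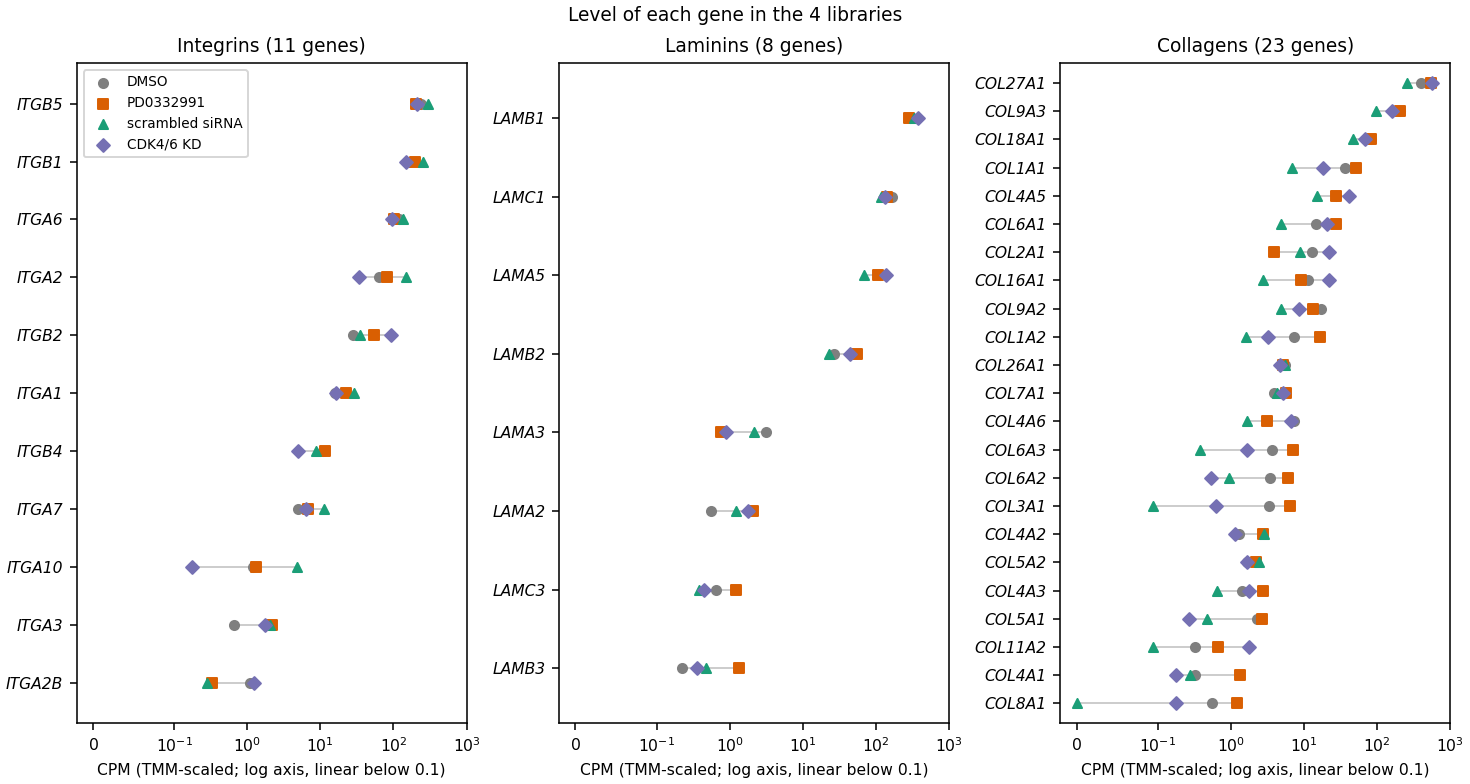
TMM-scaled level in CPM (horizontal log axis, linear below 0.1) of 11 integrins, 8 laminins and 23 collagens, with a marker for each of the 4 libraries and a grey line over their range. Scrambled siRNA (green triangles) lies at the right end for 7 integrins and at the left end for 15 collagens.

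Against scrambled siRNA, 36 of the genes had at least 10 reads in either library, and in CDK4/6 KD 12 of them lay above it by 2-fold or more and 4 below it by as much. Among all genes tested the background was 9.19% higher and 7.62% lower. The whole interval lay past 2-fold for 9 of the 36 on the higher side (background 3.33%) and for 2 on the lower side (background 3.22%). Of the 12 higher genes, 10 were collagens (of 19 tested) and 2 were integrins (of 11). Of the 11 integrins, 9 had a fold change under 1, as did 6843 of all 13617 genes tested. On the log2 scale, the median fold change of the 36 was 0.56, against a median of all genes that was 0 to 2 decimals.

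After PD0332991, 42 genes were tested against DMSO, of which 9 lay above it by 2-fold or more and 4 below, beside backgrounds of 7.49% and 7.07%. The whole interval lay past 2-fold for 1 of the 42 on the higher side (background 1.68%) and for 1, COL2A1, on the lower side (background 3.38%). The median log2 fold change of the 42 was 0.43, against 0.02 for all genes.

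Between the controls, 37 genes were tested, and in scrambled siRNA 6 lay above DMSO by 2-fold or more and 13 below, where the background was 5.30% higher and 6.64% lower. Of the 13 lower genes, 12 were collagens, and of the 6 higher, 4 were integrins. Set against DMSO, 4 of 38 genes were at least 2-fold higher in CDK4/6 KD (background 8.04%) and 8 were at least 2-fold lower (background 8.16%), with a median log2 fold change of -0.12. Set against scrambled siRNA, 18 of 41 genes were at least 2-fold higher in PD0332991 (background 10.7%) and 3 were at least 2-fold lower (background 8.17%), with a median of 0.83. Comparisons that use the same library share its error, so these counts are given side by side and were not combined.

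**Figure D2:**
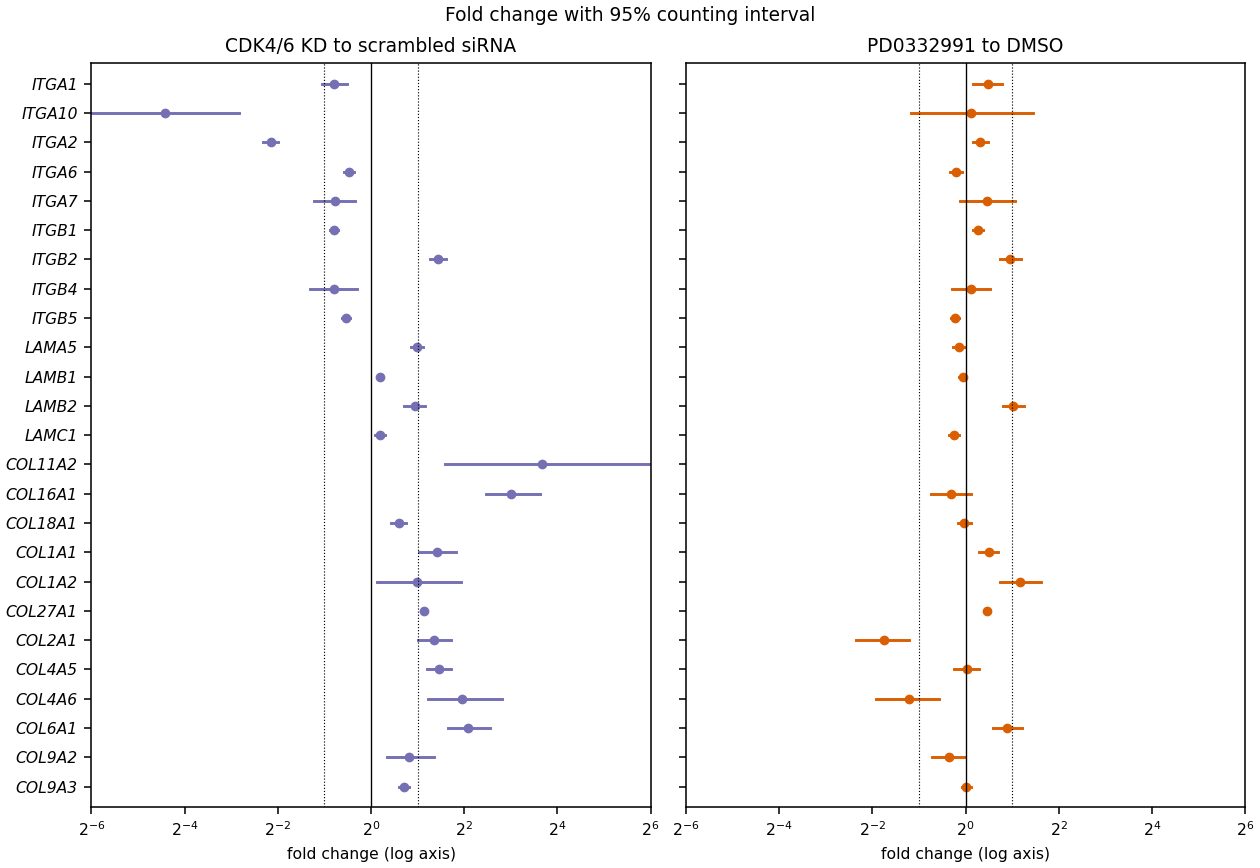
Fold change (log axis) of genes named with full counts, with bars for the 95% counting interval, in CDK4/6 KD against scrambled siRNA (left) and PD0332991 against DMSO (right). Dotted lines mark 2-fold, the intervals of ITGA10 and COL11A2 on the left run past the plotted range, and COL11A2 has no value on the right because neither library compared had 10 reads.

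Among the integrins that bind collagen, ITGA2, which lies on chromosome 5 from 52989326 to 53094779 and pairs with ITGB1, had 588 reads in DMSO, 734 in PD0332991, 1591 in scrambled siRNA and 378 after CDK4/6 KD (64.4, 80.6, 149 and 33.4 CPM). CDK4/6 KD was the lowest library and scrambled siRNA the highest. The fold change in CDK4/6 KD was 0.225 (95% interval 0.2 to 0.251), while scrambled siRNA was itself 2.31-fold above DMSO (2.1 to 2.54). Against DMSO the CDK4/6 KD value was 0.519 (0.455 to 0.592), so it was below either control. PD0332991 lay above DMSO, at a fold change of 1.25 (1.12 to 1.4), but was at 0.542 (0.496 to 0.592) of scrambled siRNA. The 4 GC boxes in capitals above belong to this gene.

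ITGA1, another collagen-binding chain, had 146, 202, 306 and 187 reads in DMSO, PD0332991, scrambled siRNA and CDK4/6 KD (16, 22.2, 28.6 and 16.5 CPM). Its CDK4/6 KD fold change was 0.578 (0.479 to 0.695) against scrambled siRNA and 1.03 (0.828 to 1.29) against DMSO, so CDK4/6 KD was below the first control and level with the second within counting error. ITGA10, a collagen-binding chain known from cartilage, had 11, 12, 51 and 2 reads in the same order (1.2, 1.32, 4.77 and 0.177 CPM). With 2 reads in CDK4/6 KD its fold change was 0.047 against scrambled siRNA (0.00437 to 0.141) and 0.181 against DMSO (0.0158 to 0.672). ITGA10 was therefore lowest in CDK4/6 KD and highest in scrambled siRNA, as ITGA2 was, from far fewer reads.

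ITGB1, the beta chain shared by most matrix-binding integrins, had 1479 reads in DMSO, 1771 in PD0332991, 2742 in scrambled siRNA and 1679 after CDK4/6 KD (162, 195, 256 and 148 CPM). Its CDK4/6 KD fold change was 0.579 (0.544 to 0.615) against scrambled siRNA and 0.916 (0.854 to 0.983) against DMSO. PD0332991 also lay on different sides of the controls, at 1.2 (1.12 to 1.29) of DMSO and 0.759 (0.715 to 0.806) of scrambled siRNA. The chain and its partners did not keep 1 proportion. Reads of ITGB1 per read of ITGA2 were 2.52 in DMSO, 2.41 in PD0332991, 1.72 in scrambled siRNA and 4.44 after CDK4/6 KD, and the intervals of the last (3.97 to 4.98) and of scrambled siRNA (1.62 to 1.83) overlapped none of the others. Per read of ITGA1 the same ratio ran from 8.77 to 10.1, with intervals that all overlapped.

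ITGA6, ITGA7 and ITGB4 belong to laminin-binding integrins, and ITGB4 pairs with ITGA6 in hemidesmosomes. ITGA6 had 1084, 938, 1429 and 1088 reads in DMSO, PD0332991, scrambled siRNA and CDK4/6 KD (119, 103, 134 and 96.1 CPM), the smallest ratio of highest to lowest CPM among the named integrins, with a CDK4/6 KD fold change of 0.72 (0.665 to 0.779). ITGA7, known from muscle, had 45, 62, 119 and 73 reads (4.92, 6.81, 11.1 and 6.45 CPM), and its fold change was 0.582 (0.427 to 0.783) against scrambled siRNA and 1.31 (0.891 to 1.94) against DMSO. ITGB4 had 98, 106, 92 and 56 reads (10.7, 11.6, 8.6 and 4.95 CPM). Unlike ITGA7, ITGB4 was lower in CDK4/6 KD than in either control, with fold changes of 0.578 (0.405 to 0.811) and 0.464 (0.326 to 0.647). After PD0332991 the fold changes of ITGA6, ITGA7 and ITGB4 were 0.868, 1.38 and 1.09, and the interval of ITGA6 alone excluded 1.

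ITGB5, which pairs with the ITGAV chain to bind vitronectin, was the most counted integrin, with 2155 reads in DMSO, 1837 in PD0332991, 3214 in scrambled siRNA and 2344 after CDK4/6 KD (236, 202, 300.4 and 207 CPM). It was highest in scrambled siRNA, and its fold change was 0.689 (0.653 to 0.727) in CDK4/6 KD and 0.855 (0.803 to 0.911) after PD0332991. ITGAV has no number in its symbol and is outside the rule. It had 523, 520, 542 and 696 reads (57.2, 57.1, 50.7 and 61.5 CPM). In CPM it was lowest in scrambled siRNA, where ITGB5 was highest. Its CDK4/6 KD fold change was 1.21 (1.08 to 1.36) against scrambled siRNA. Against DMSO it was 1.07 (0.958 to 1.21), an interval that includes 1.

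ITGB2, the beta chain of leukocyte integrins on chromosome 21 (44885953 to 44931989), stood apart from the other integrins. Its reads were 255 in DMSO, 493 in PD0332991, 368 in scrambled siRNA and 1058 after CDK4/6 KD (27.9, 54.1, 34.4 and 93.5 CPM). CDK4/6 KD was the highest library and PD0332991 the next, and each lay above both controls. The fold change in CDK4/6 KD was 2.72 (2.41 to 3.07) against scrambled siRNA and 3.34 (2.92 to 3.86) against DMSO, and in PD0332991 it was 1.94 (1.66 to 2.27) against DMSO and 1.57 (1.37 to 1.81) against scrambled siRNA. The controls differed by 1.23-fold (1.05 to 1.45). Its known alpha partners were scarce, with 5, 14, 2 and 15 reads for ITGAL and at most 3 reads in any library for ITGAM and ITGAX. The leukocyte marker PTPRC had 2 reads in DMSO and 0 in the others, CD3E had 0 in all 4, and the summed level of the 5 leukocyte markers was 13.1, 17.4, 14.1 and 9.72 CPM, lowest in CDK4/6 KD.

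Among the laminins, LAMA5, LAMB1 and LAMC1 together can form a trimer of mature basement membranes, and these 3 chains were among the most counted. LAMB1 had 2665 reads in DMSO, 2543 in PD0332991, 3584 in scrambled siRNA and 4305 after CDK4/6 KD (292, 279, 335 and 380.3 CPM). LAMC1 had 1510, 1274, 1266 and 1524 reads (165, 139.9, 118 and 135 CPM). LAMA5 had 1049, 954, 743 and 1559 reads (115, 105, 69.4 and 138 CPM). All 3 lay above scrambled siRNA in CDK4/6 KD, by fold changes of 1.14 (1.09 to 1.19), 1.14 (1.06 to 1.23) and 1.98 (1.82 to 2.17). Against DMSO the values were 1.3 for LAMB1, 0.815 for LAMC1 and 1.2 for LAMA5, so LAMC1 changed side. Reads of LAMC1 per read of LAMA5 were 1.44 in DMSO, 1.34 in PD0332991, 1.7 in scrambled siRNA and 0.978 after CDK4/6 KD, where the interval of 0.91 to 1.05 lay below the others.

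LAMB2, the beta chain that replaces LAMB1 in other laminin trimers, was higher under both forms of CDK4/6 inhibition. Reads were 245 in DMSO, 496 in PD0332991, 244 in scrambled siRNA and 495 after CDK4/6 KD (26.8, 54.5, 22.8 and 43.7 CPM). The 2 controls were close and the 2 inhibited libraries lay above both. The fold change was 1.92 (1.64 to 2.24) in CDK4/6 KD and 2.03 (1.74 to 2.38) after PD0332991, with 0.851 (0.709 to 1.02) between the controls. Reads of LAMB1 per read of LAMB2 were 10.9 in DMSO (9.54 to 12.4) and 14.7 in scrambled siRNA (12.9 to 16.8), against 5.13 in PD0332991 (4.65 to 5.66) and 8.7 in CDK4/6 KD (7.92 to 9.56). The ratio was thus lower in each inhibited library than in its own control.

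LAMA3 and LAMB3, laminin chains known from epithelia such as skin, were picked here after their values were seen and went in different directions. LAMB3 had 2 reads in DMSO, 12 in PD0332991, 5 in scrambled siRNA and 4 after CDK4/6 KD, with a PD0332991 ratio of 5.09 (1.34 to 55.4). LAMA3 had 29, 7, 23 and 10 reads, with a PD0332991 fold change of 0.254 (0.0896 to 0.565), so it was lowest where LAMB3 was highest. Several keratinocyte genes were higher in PD0332991 than in DMSO, as LAMB3 was. In CDK4/6 KD, 6 of 11 keratinocyte markers tested lay above scrambled siRNA and 5 below. KRT5 (fold change: 3.04) and KRT14 (2.24) lay above it there, where LAMB3 did not. KRT14 had 9, 249, 31 and 74 reads, KRT5 had 2, 113, 13 and 43, and 8 of 11 keratinocyte markers tested were at least 2-fold higher in PD0332991 than in DMSO (background 7.49%). The summed level of the 20 markers, 215, 261, 380.2 and 233 CPM, was highest in scrambled siRNA, as was SFN, the most counted of them (1221, 563, 3266 and 1152 reads). TP63 had at most 1 read in any library and S100A7 had 0. The part of these genes in the laminin result was not tested.

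Among the collagens on the surface of fibrils, COL16A1, on chromosome 1 from 31652247 to 31704319, had 102 reads in DMSO, 82 in PD0332991, 29 in scrambled siRNA and 249 after CDK4/6 KD (11.2, 9.01, 2.71 and 22 CPM). CDK4/6 KD was the highest library and scrambled siRNA the lowest. The fold change was 7.99 (5.51 to 12.4) against scrambled siRNA and 1.97 (1.56 to 2.51) against DMSO, since scrambled siRNA was itself at 0.246 of DMSO (0.155 to 0.37). After PD0332991 the value was 0.808 (0.596 to 1.09), or 3.28 (2.15 to 5.27) against scrambled siRNA. The last 500 bases of COL16A1 overlap AC114488.2 on the other strand, and whether the counting used the strand is not stated.

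COL9A3 and COL9A2 encode chains of type IX collagen, known from cartilage. COL9A3 had 1851 reads in DMSO, 1869 in PD0332991, 1042 in scrambled siRNA and 1810 after CDK4/6 KD (203, 205, 97.4 and 159.9 CPM). COL9A2 had 155, 120, 52 and 98 reads (17, 13.2, 4.86 and 8.66 CPM). Both were lowest in scrambled siRNA, and both changed side with the control. Their CDK4/6 KD fold changes were 1.64 (1.52 to 1.77) and 1.77 (1.26 to 2.54) against scrambled siRNA, and 0.789 (0.739 to 0.843) and 0.512 (0.392 to 0.661) against DMSO. The third chain of type IX, COL9A1, had 0 reads in all 4 libraries, which allows up to 3 reads in each.

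COL27A1, a fibrillar collagen on chromosome 9 (114155560 to 114312511), was the most counted collagen, with 3697 reads in DMSO, 5042 in PD0332991, 2757 in scrambled siRNA and 6418 after CDK4/6 KD (405, 554, 258 and 567 CPM). Both inhibited libraries lay above both controls. The fold change was 2.2 (2.1 to 2.3) in CDK4/6 KD, or 1.4 (1.35 to 1.46) against DMSO, and 1.37 (1.31 to 1.43) after PD0332991. Scrambled siRNA was at 0.637 of DMSO (0.606 to 0.669).

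COL2A1, the fibrillar collagen of cartilage on chromosome 12 (47972965 to 48004554), had 119 reads in DMSO, 35 in PD0332991, 93 in scrambled siRNA and 251 after CDK4/6 KD (13, 3.84, 8.69 and 22.2 CPM). It lay at opposite ends in the inhibited libraries, highest in CDK4/6 KD and lowest in PD0332991, with both controls between. The fold change was 2.54 (2 to 3.27) in CDK4/6 KD, or 1.7 (1.36 to 2.14) against DMSO, and 0.298 (0.196 to 0.433) after PD0332991, or 0.445 (0.291 to 0.659) against scrambled siRNA. COL11A2, a partner of COL2A1 in cartilage fibrils, had 3, 6, 1 and 20 reads, and the CDK4/6 KD ratio was 12.7 with an interval of 3.02 to 784.

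COL4A5 and COL4A6, the head-to-head pair of type IV chains whose promoter windows are printed above, were both lowest in scrambled siRNA. COL4A5 had 247 reads in DMSO, 250 in PD0332991, 163 in scrambled siRNA and 474 after CDK4/6 KD (27, 27.5, 15.2 and 41.9 CPM). COL4A6 had 66, 28, 18 and 75 reads (7.22, 3.08, 1.68 and 6.63 CPM), so in CPM it was highest in DMSO. Against scrambled siRNA the CDK4/6 KD fold changes were 2.74 (2.3 to 3.3) and 3.85 (2.33 to 7). Against DMSO they were 1.55 (1.33 to 1.81) and 0.918 (0.65 to 1.3), and COL4A6 no longer lay above its control. After PD0332991, COL4A5 was at 1.02 (0.848 to 1.22) and COL4A6 at 0.43 (0.263 to 0.672). Reads of COL4A5 per read of COL4A6 ran from 3.74 in DMSO (2.84 to 4.99) to 9.06 in scrambled siRNA (5.55 to 15.7), so genes that share 121 bases of promoter window did not hold 1 ratio across libraries.

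COL18A1, a basement membrane collagen whose end fragment is endostatin, had 763 reads in DMSO, 748 in PD0332991, 493 in scrambled siRNA and 786 after CDK4/6 KD (83.5, 82.1, 46.1 and 69.4 CPM). Scrambled siRNA was the lowest library. Its CDK4/6 KD fold change was 1.51 (1.34 to 1.69), or 0.832 (0.752 to 0.92) against DMSO, and its PD0332991 fold change was 0.984 (0.888 to 1.09).

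**Figure D3:**
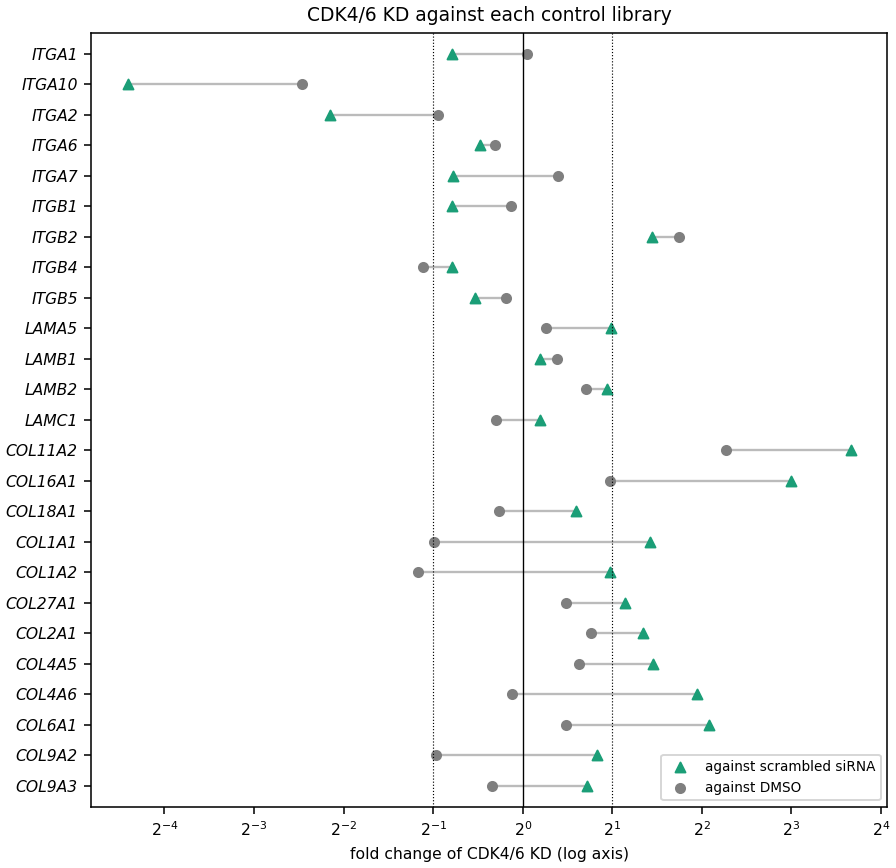
Fold change of CDK4/6 KD (log axis) for the named genes with a value in both comparisons, against scrambled siRNA (green triangles) and against DMSO (grey circles), with dotted lines at 2-fold. For COL1A1, COL1A2, COL4A6, COL9A2, COL9A3, COL18A1, LAMC1, ITGA1 and ITGA7 the points lie on opposite sides of 1, while ITGB2 and COL11A2 are above 2-fold against either control.

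Of the collagen chains that fibroblasts make in quantity, 7 (COL1A1, COL1A2, COL3A1, COL5A1, COL6A1, COL6A2 and COL6A3) were grouped after their values were seen, as chains low together in scrambled siRNA, so their common direction there is how they were chosen. COL5A2, the partner of COL5A1 in type V collagen, is not among them and was highest in scrambled siRNA, with 15, 20, 26 and 19 reads. In scrambled siRNA all 7 were at least 2-fold below DMSO, at fold changes from 0.0429 to 0.331 (background 6.64%). After PD0332991 all 7 were above 1, from 1.14 to 2.24, as were 6936 of all 13443 genes tested. The interval of COL5A1 (0.612 to 2.17) included 1 there, and those of the other 6 did not. COL1A1, on chromosome 17 (50183289 to 50201632), had 332 reads in DMSO, 468 in PD0332991, 73 in scrambled siRNA and 207 after CDK4/6 KD (36.3, 51.4, 6.82 and 18.3 CPM). Its CDK4/6 KD value depended on the control, with a fold change of 2.67 (2.04 to 3.55) against scrambled siRNA and 0.504 (0.421 to 0.6) against DMSO. COL1A2, its partner chain in type I collagen, had 66, 148, 17 and 36 reads (7.22, 16.3, 1.59 and 3.18 CPM), with a CDK4/6 KD fold change of 1.97 (1.1 to 3.8) and a PD0332991 fold change of 2.24 (1.67 to 3.06). Reads of COL1A1 per read of COL1A2 ran from 3.16 in PD0332991 (2.62 to 3.83) to 5.75 in CDK4/6 KD (4.02 to 8.44), so the 2 type I chains did not keep 1 proportion either.

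COL6A1, a chain of the beaded filaments around cells, had 135 reads in DMSO, 250 in PD0332991, 52 in scrambled siRNA and 235 after CDK4/6 KD (14.8, 27.5, 4.86 and 20.8 CPM). It was the exception among the 7, above both controls in CDK4/6 KD. The fold change was 4.24 (3.15 to 5.89) against scrambled siRNA and 1.4 (1.13 to 1.75) against DMSO, and 1.86 (1.5 to 2.31) after PD0332991. Its partner chain COL6A3 had 33, 65, 4 and 19 reads, with fold changes close to those of COL6A1 in CDK4/6 KD (4.08, 1.49 to 18.1) and after PD0332991 (1.96, 1.28 to 3.1), but against DMSO its CDK4/6 KD value was 0.472 (0.25 to 0.842). COL6A2 had 31, 55, 10 and 6 reads, so it was lowest in CDK4/6 KD.

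Some fibroblast markers moved with these collagens and others did not. VIM had 56 reads in DMSO, 115 in PD0332991, 8 in scrambled siRNA and 22 after CDK4/6 KD, PDGFRB had 11, 17, 1 and 5, and DCN had 0, 18, 0 and 2. The 7 chains summed to 70.9, 117, 15.1 and 45.3 CPM in the same order. Of the 10 fibroblast or stellate markers, 6 had at least 10 reads in any library, and their summed level of 100.2, 195, 125 and 132 CPM was mostly ACTA2 (808, 1584, 1288 and 1434 reads), which was not low in scrambled siRNA. THY1 had 13, 13, 3 and 2 reads, low in both siRNA libraries and level between DMSO and PD0332991, and RGS5 went the other way, with 24, 14, 37 and 24. PDGFRA had at most 3 reads, LUM at most 8, and DES 0. The part of these genes in the collagen result was not tested. Without the 7 chains, 9 of 31 genes in CDK4/6 KD lay 2-fold or more above scrambled siRNA and 4 below (backgrounds 9.19% and 7.62%). The median log2 fold change of the 31 was 0.28. In RNA from a whole culture, fewer cells of a type and less RNA per cell cannot be told apart.

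**Figure D4:**
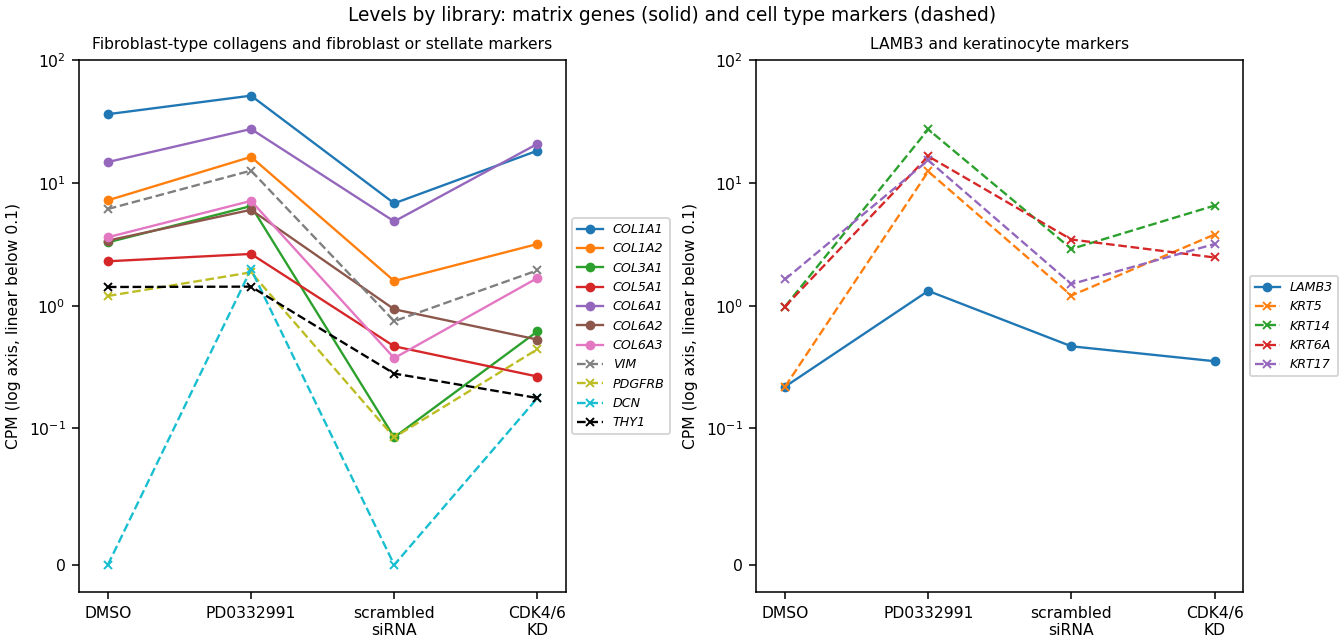
Level in CPM (vertical log axis, linear below 0.1) in the 4 libraries for the 7 fibroblast-type collagens with 4 fibroblast or stellate markers (left) and for LAMB3 with 4 keratinocyte markers (right), with solid lines for matrix genes and dashed lines for markers. VIM and PDGFRB are lowest in scrambled siRNA, as COL1A1 and COL3A1 are, and the 4 keratins are highest in PD0332991, as LAMB3 is. The 7 collagens were grouped as low in scrambled siRNA, and the markers plotted are part of each list. Of those not plotted, ACTA2 was not low in scrambled siRNA, RGS5 was highest there and SFN was lowest in PD0332991.

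Of the 43 genes, 17 were below 100 reads everywhere and without a whole interval past 2-fold in CDK4/6 KD or PD0332991. They were ITGA2B and ITGA3, LAMA2, LAMA3, LAMB3 and LAMC3, and COL3A1, COL4A1, COL4A2, COL4A3, COL5A1, COL5A2, COL6A2, COL6A3, COL7A1, COL8A1 and COL26A1. The highest count among them was 65 reads, for COL6A3 in PD0332991. COL26A1 and COL7A1 were steady, with 47 to 59 and 36 to 59 reads, and every interval of these genes included 1. Just inside the minimum of 10 reads were COL8A1 and LAMC3, each with 11 reads in PD0332991, and just outside was ITGA5, the fibronectin receptor chain, with 3, 9, 9 and 9 reads. The remaining 32 genes under the minimum had at most 7 reads in any library, and 10 were at 0 in all 4.

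Genes that work with these families were read from lists written by hand. Of the matrix ligands of integrins, 15 of 23 were tested in CDK4/6 KD, 5 were at least 2-fold higher and 0 lower (backgrounds 9.19% and 7.62%), and those with the highest lower interval ends were the fibrinogen chains FGA (2617, 4108, 2860 and 10241 reads, fold change: 3.38), FGG (3.13) and FGB (2.62). Fibrinogen is a secreted product of hepatocytes, and FGA was also above DMSO in PD0332991. In PD0332991 1 of 16 ligands was higher and 1 lower, near the backgrounds of 7.49% and 7.07%, namely TNC at 3.62 (1.08 to 22.2) and THBS1, a matricellular glycoprotein, at 0.452 (433, 195, 397 and 567 reads).

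Other basement membrane genes gave 3 of 11 higher and 0 lower in CDK4/6 KD (backgrounds 9.19% and 7.62%), namely SPARC (277, 318, 121 and 437 reads, fold change: 3.4), the laminin receptor BCAM (278, 390, 166 and 496 reads, fold change: 2.82) and NTN4 (80, 64, 77 and 181 reads, fold change: 2.21). SPARC and BCAM were lowest in scrambled siRNA, like most collagens. With DMSO as the control, the CDK4/6 KD values were 1.27 for SPARC, 1.44 for BCAM and 1.82 for NTN4. After PD0332991, 0 of 12 were past 2-fold in either direction (backgrounds 7.49% and 7.07%).

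Among genes that process collagen, 2 of 25 were higher and 2 lower in CDK4/6 KD, shares near the backgrounds of 9.19% and 7.62%. PCOLCE, an enhancer of procollagen cleavage, had 184, 220, 138 and 469 reads (fold change: 3.2), and LOXL1, a crosslinking enzyme, had 4, 15, 1 and 15 (9.61, 2.18 to 597). PLOD3, a lysyl hydroxylase that acts on collagen chains, had 771, 732, 953 and 273 reads (fold change: 0.271, 0.236 to 0.31), and COLGALT2, a collagen galactosyltransferase, was at 0.483. PLOD3 thus lay below scrambled siRNA, where 15 of the 19 collagens tested lay above it, as did 6774 of all 13617 genes tested. With DMSO as the control, CDK4/6 KD values were 2.05 for PCOLCE and 2.82 (0.964 to 12.5) for LOXL1. They were 0.286 for PLOD3 and 0.885 (0.772 to 1.01) for COLGALT2. After PD0332991 2 of 25 were higher, near the background of 7.49%, ADAMTS2 (5, 38, 30 and 29 reads, fold change: 7.08) and LOXL1 (3.48), and 0 were lower (background 7.07%).

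On the cytoplasmic side, 2 of 37 focal adhesion and hemidesmosome genes were higher in CDK4/6 KD and 3 lower, shares not far from the backgrounds of 9.19% and 7.62%. TLN1, which links integrin beta chains to actin, had 1310, 1520, 611 and 1616 reads (fold change: 2.5). PTK2B, a focal adhesion kinase relative, had 53, 108, 84 and 206 (2.31). With DMSO as the control, TLN1 was at 0.996 (0.925 to 1.07) in CDK4/6 KD and PTK2B at 3.12 (2.31 to 4.33). TNS4, a tensin that binds beta chain tails, had 108, 33, 131 and 6 reads, with fold changes of 0.0472 (0.0156 to 0.0968) in CDK4/6 KD and 0.31 (0.201 to 0.457) after PD0332991, so it was lower in each inhibited library than in either control. LIMS2 was at 0.466 and FERMT2, a kindlin that activates integrins, at 0.495 in CDK4/6 KD. After PD0332991 PTK2B was the 1 higher gene (2.04) and TNS4 the 1 lower of 37 (backgrounds 7.49% and 7.07%).

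Of the matrix proteases and their inhibitors, 1 of 20 was higher in CDK4/6 KD and 5 lower (backgrounds 9.19% and 7.62%). MMP11 had 73, 243, 12 and 76 reads (fold change: 5.78), highest in PD0332991 and lowest in scrambled siRNA like COL1A1. TIMP1, an inhibitor of metalloproteases, had 369, 522, 1292 and 482 reads (fold change: 0.353), and ADAM17 was at 0.446. TIMP1 was highest in scrambled siRNA, as ITGA2 was. With DMSO as the control, CDK4/6 KD values were 0.841 (0.601 to 1.18) for MMP11 and 1.05 (0.919 to 1.21) for TIMP1. ADAM17 was at 0.661 (0.548 to 0.795) of DMSO there. After PD0332991 2 of 20 were higher, MMP11 (3.33) and PLAU (10, 26, 12 and 6 reads, fold change: 2.54), and 0 were lower (backgrounds 7.49% and 7.07%).

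Of the 43 genes, 10 have a 3′ end that overlaps a gene on the other strand within the last 500 bases in GENCODE 29 and none overlaps one on its own strand. They are COL16A1, COL18A1 (SLC19A1), COL4A3, COL9A3 (TCFL5), ITGA1, ITGA6, ITGA7 (METTL7B), ITGB4 (GALK1), LAMA5 (ADRM1) and LAMB1 (DLD). Counts of these genes are uncertain to the extent that the counting ignored strand, which is not stated.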

How the data were processed

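RNA from the 4 HepG2 cultures was isolated with TRIzol, and libraries were built with the QuantSeq 3′ mRNA-Seq kit and sequenced single-end on a NextSeq 500. For each library the authors deposited unnormalized counts of reads by gene symbol. The submitters' processing notes name Bowtie2, edgeR and hg19 with no versions, while the counter, its strand setting and the annotation are not given in the sources used here. Each table lists 25737 entries, and the 286 symbols with repeated entries were added up.

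Conditions were taken from the sample labels. TMM scaling used edgeR 4.0.16 under R 4.3.3. For fold changes, 0.5 reads (in proportion to library size) were added to each count, and a gene needed 10 reads in at least 1 library of the pair. No fold change was given where both counts were 3 or fewer. Exact 95% Clopper-Pearson intervals (scipy 1.17.1) cover counting error only. No molecular identifiers are named, so the intervals take each read as a separate molecule and do not allow for amplification copies. With 1 library per condition, no test was run. The procedure was tested on simulated data. Positions come from GENCODE 29 (GRCh38), matched by symbol, and promoter sequences from RefSeq (GRCh38.p14).

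Genes with at least 100 reads in a library, or with the whole interval past 2-fold, were named with their counts. From each other list, up to 3 genes per direction were named. The genes and lists were chosen with earlier results of these data known. Alternatives were DESeq2 size factors (DESeq2 1.42.0), total counts, a pseudocount of 5 reads, no read minimum or one of 50, the control of the other arm, a 1.5-fold threshold, calls by the whole interval, and, for repeated symbols, the entry with most reads. Leaving out the fibroblast-type chains was added after the data were examined. The values of some genes are not reported here.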

Additional observations from a re-analysis of the deposited data

Results flagged for a closer look

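For 4 genes the library of each inhibited arm lay on opposite sides of its own control by 2-fold or more, and with 1 library per condition the difference between the arms was not tested. COL2A1 had a fold change of 2.54 in CDK4/6 KD and 0.298 after PD0332991. COL4A6 had 3.85 and 0.430. COL4A2, the type IV chain of most basement membranes, had 0.420 and 2.05, from 12 reads in DMSO, 25 in PD0332991, 30 in scrambled siRNA and 13 in CDK4/6 KD. ITGA2B, the platelet integrin chain, had 3.90 and 0.331, from 10, 3, 3 and 14 reads. Intervals that excluded 1 in both arms were those of COL2A1, COL4A6 and COL4A2, while the PD0332991 interval of ITGA2B (0.0532 to 1.17) included it. Against DMSO the CDK4/6 KD values were 1.7 for COL2A1, 0.918 (0.65 to 1.3) for COL4A6, 0.879 (0.368 to 2.1) for COL4A2 and 1.12 (0.467 to 2.84) for ITGA2B, so for the last 3 the opposite directions rest on scrambled siRNA as the control. That library was at 0.238, 2.09 and 0.288 of DMSO for those 3.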

How the results depend on the processing

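DESeq2 size factors, total counts, a pseudocount of 5 reads and the most counted entry of a symbol left the 4 counts of genes past 2-fold within 1.5 times the values reported. Total counts shifted the median of all genes in CDK4/6 KD by 0.10 on the log2 scale and the higher share of all calls there from 54.7% to 63.7%. With the control of the other arm, CDK4/6 KD had 4 genes higher and 8 lower with a median log2 fold change of -0.12, and PD0332991 had 18 higher, with a median of 0.83. It turned the sign of 9 of 25 named genes in CDK4/6 KD and 11 of 25 in PD0332991. Of those past 2-fold as reported, these were COL1A1 (-0.99) and COL4A6 (-0.12, an interval that includes no change) in CDK4/6 KD and COL4A6 (0.85) in PD0332991, on the log2 scale. Among the others were COL1A2 (-1.17), COL9A2 (-0.97), COL9A3 (-0.34), COL18A1 (-0.27) and LAMC1 (-0.30) in CDK4/6 KD, and COL16A1 (1.71), COL9A2 (1.43), ITGA2 (-0.88) and ITGB1 (-0.40) in PD0332991. Without a read minimum, CDK4/6 KD had 21 of 62 genes higher and 9 lower, beside 2996 and 2060 of all 17392 genes. PD0332991 then had 19 of 62 higher and 9 lower, beside 2814 and 2037 of all 17541. With at least 50 reads, 2 of 25 were lower in CDK4/6 KD, beside 676 of all 11174 genes. In PD0332991 2 of 28 were higher and 2 lower, beside 406 and 675 of all 10876. At 1.5-fold, 9 were lower in CDK4/6 KD and 16 higher in PD0332991, and the share of all genes at that threshold was not counted. With the whole interval past 2-fold, 2 were lower in CDK4/6 KD, and 1 was higher and 1 lower in PD0332991. Without the fibroblast-type chains, CDK4/6 KD had 9 of 31 higher and 4 lower (backgrounds 9.19% and 7.62%). PD0332991 then had 8 of 35 higher and 4 lower (backgrounds 7.49% and 7.07%). The medians were 0.28 in CDK4/6 KD and 0.26 in PD0332991. Apart from changes of filter and threshold, which act by construction, the cause was not tested. No library could be left out, and counts under 50 reads limit the precision of the low genes.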
